A study of Mus musculus with 135 samples.

Results

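The promoters of 8 cardiac transcription factors, Nkx2-5, Tbx5, Tbx20, Gata4, Gata6, Hand2, Mef2a and Mef2c, were followed through 4 mouse cell types. The list that defined them held 9 names, of which Irx4x matched no annotated gene and was left without values. The peaks followed are the H3K4me3 peaks lying within 1 kb of a GENCODE M21 transcription start site of these genes, 34 of the 187253 peaks in the 4 deposited tables and of 63451 peaks at promoters. Cardiomyocytes held 11 of them, hepatocytes 5, embryonic stem (ES) cells 8 and male germ cells 10.

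H3K4me3, trimethylation of lysine 4 on histone H3, was read by ChIP-seq, in which fragments bound by an antibody to the mark are sequenced, with the aim of mapping loci that set its level. The strains were C57BL/6J (B6), DBA/2J (D2), their F1 hybrid and BXD lines, which are inbred mosaics of both founder genomes, and no other allele or agent is labelled. Each of the strains B6, D2, BXD75 and BXD87 gave 3 libraries of cardiomyocytes and 3 of hepatocytes, from female mice 8 weeks old. ES cells came from embryos at day 3.5, with 3 lines of B6, 3 of D2 and 5 each of BXD75 and BXD87. Germ cells were a crude isolate from males at 14 days post-partum, with 4 F1 libraries, 3 of B6, 3 of D2 and 69 of 61 BXD lines. Nothing in the labels ties a library to an animal of its own, so p-values measure only the spread between these samples, which may be technical.

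H3K4me3 marks the start sites of active genes, and unusually broad domains of it are known at genes that define a cell type. NKX2-5, TBX5, TBX20, GATA4, GATA6, HAND2 and the MEF2 factors bind DNA together at many heart enhancers and switch on contractile genes. GATA4 and GATA6 also act in endoderm and in the somatic cells of the testis, and MEF2 factors act in muscle, neurons and many other tissues.

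The upstream sequences below are those of the start sites that the promoter peaks cover, for 3 genes whose cardiomyocyte peak differed between founders (Nkx2-5, Tbx20, Mef2a) and 2 whose peak did not pass the test (Hand2, Mef2c). Each is the 250 bases before a RefSeq start site on GRCm38.p6, 5′ to 3′ on the transcribed strand, and capitals mark GATAA (bound by GATA factors), AAGTG (NKX2-5) and AGGTGTG (T-box factors) on either strand, which occur here only in Hand2 and Mef2c.
Nkx2-5, chr17:26841566-26841815, minus strand: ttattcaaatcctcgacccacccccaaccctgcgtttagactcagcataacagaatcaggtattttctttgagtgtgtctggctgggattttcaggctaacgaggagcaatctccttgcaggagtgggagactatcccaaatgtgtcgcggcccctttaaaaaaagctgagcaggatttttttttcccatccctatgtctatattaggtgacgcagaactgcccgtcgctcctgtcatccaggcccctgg
Tbx20, chr9:24774304-24774553, minus strand: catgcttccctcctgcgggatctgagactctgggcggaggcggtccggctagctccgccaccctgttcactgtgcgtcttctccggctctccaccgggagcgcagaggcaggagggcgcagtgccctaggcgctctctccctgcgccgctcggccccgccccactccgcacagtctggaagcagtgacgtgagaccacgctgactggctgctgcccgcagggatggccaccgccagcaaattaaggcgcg
Mef2a, chr7:67372859-67373108, minus strand: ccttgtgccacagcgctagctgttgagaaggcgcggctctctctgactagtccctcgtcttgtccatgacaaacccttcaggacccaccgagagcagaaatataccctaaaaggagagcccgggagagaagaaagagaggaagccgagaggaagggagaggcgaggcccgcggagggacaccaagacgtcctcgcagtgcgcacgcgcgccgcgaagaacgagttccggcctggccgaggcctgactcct
Hand2, chr8:57320733-57320982, plus strand: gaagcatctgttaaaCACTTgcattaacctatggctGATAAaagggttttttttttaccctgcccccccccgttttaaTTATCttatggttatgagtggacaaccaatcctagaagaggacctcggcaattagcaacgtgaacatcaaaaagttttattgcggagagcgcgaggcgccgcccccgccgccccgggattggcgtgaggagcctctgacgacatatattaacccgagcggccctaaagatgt
Mef2c, chr13:83523406-83523655, plus strand: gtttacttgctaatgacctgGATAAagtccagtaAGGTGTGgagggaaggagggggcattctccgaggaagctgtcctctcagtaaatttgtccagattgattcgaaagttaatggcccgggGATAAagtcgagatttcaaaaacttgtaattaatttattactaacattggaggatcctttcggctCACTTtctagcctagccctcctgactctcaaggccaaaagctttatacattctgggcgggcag

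RefSeq promoter sequences were matched for 5 of the 8 genes, with 3 starts for Mef2c and hence 7 windows. GATAA stood in 2 of the 7 windows, those of Hand2 and of the Mef2c start shown, against 22.58% of 32851 promoters of the same length. AAGTG stood in 4 of 7 (40.71% of all promoters), AGGTGTG in 1 of 7 (5.105%), the E-box CANNTG that HAND2 can bind in 4 of 7 (66.22%) and the GC box GGGCGG in 3 of 7 (32.74%). The MEF2 motif, searched by its name, stood in 0 of 7 windows and in 2.919% of all promoters. Both strands were read, and CANNTG can overlap AAGTG, as in the CACTTG of Hand2. The ratio of observed to expected CpG was 0.993 at Hand2, 0.887 at Mef2a, 0.749 at Tbx20, 0.535 at Nkx2-5 and 0.484 at the Mef2c start shown, all above the median of 0.374 over all promoters. The other Mef2c starts lay below it, at 0.149 and 0.261.

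The cardiomyocyte table held a promoter peak for 10 of 15 cardiomyocyte markers, among them Ryr2, Actn2 and Mybpc3, and none within 1 kb of Myh6, Myh7, Tnnt2, Actc1 or Nppa. Among markers of other heart cells, peaks were listed for 5 of 7 endothelial, 6 of 8 fibroblast and epicardial and 4 of 5 mural. In that order ES cells had 4, 5 and 4 of these markers with a peak, and germ cells 5, 6 and 5. Blood had 1 of 6 markers with a peak in cardiomyocytes. Such counts do not separate cell types, so the isolate is described here as labelled and not as pure. Other defining markers without a listed promoter peak were Pou5f1, Nanog and Tdgf1 in ES cells and Serpina1a in hepatocytes, whose lists had 5 of 8 and 11 of 12 members with one, against 8 of 8 germ cell markers in germ cells. Yet ES cells also had a peak for 7 of 8 germ cell markers, and germ cells for 7 of 8 ES cell markers. Reads in peaks ranged from 2.62 to 12.8 M (megareads) per cardiomyocyte library, 8.95 to 25.2 M per hepatocyte library, 13.8 to 55.3 M per ES line and 1.87 to 31.4 M per germ cell library. The D2 cardiomyocyte libraries were the shallowest of that cell type, at 2.62 to 4.1 M. Levels are given in CPM, the reads of a peak per megaread in all peaks of the library, scaled within each table, so levels of different cell types are scaled separately.

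Cardiomyocyte promoter peaks of these genes were broad. The Gata6 peak (chr18:11046175-11081463, mm10 throughout) spanned 35.3 kb and was wider than 99.4% of cardiomyocyte promoter peaks. The 5′ Gata4 peak (chr14:63226509-63258439) spanned 31.9 kb and that of Hand2, a basic helix-loop-helix factor of the right ventricle (chr8:57307460-57335680), spanned 28.2 kb. The Hand2 peak also covered start sites of Hand2os1, 5033428I22Rik and Gm34030, whose signal cannot be separated from it. The Gata6, Tbx5, Tbx20 and Mef2a peaks likewise covered a start site of 1010001N08Rik, Gm43050, Gm29824 and Gm44668, in that order. Nkx2-5, a homeobox factor of the early heart field (chr17:26834555-26855091), and Tbx20, a T-box factor (chr9:24761927-24782360), had peaks of 20.5 and 20.4 kb. These 5 peaks exceeded the 95th percentile of 15.4 kb, where the median promoter peak was 4.13 kb. Tbx5, the T-box factor of Holt-Oram syndrome (chr5:119828595-119840975, 12.4 kb), and Mef2a, a MADS-box factor (chr7:67365430-67375979, 10.5 kb), were narrower. Mef2c, another MADS-box factor with several promoters, had 3 peaks of 2.33, 7.51 and 12.7 kb, in order along the gene (chr13:83522559-83524886, 83525632-83533143 and 83564280-83576948). A downstream Gata4 start, called internal below, had a peak of 11.3 kb (chr14:63202874-63214183). The internal Gata4 peak and the second and the third Mef2c peaks are named in the authors' peak list as found on the reference genome alone, and the other 8 as found on both genomes.

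**Figure D1:**
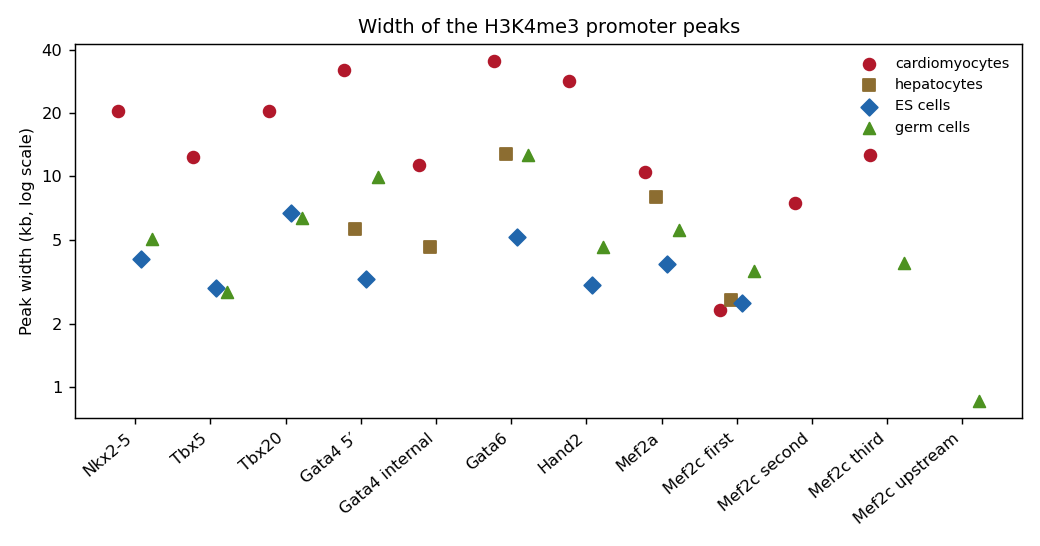
Width in kb (log scale) of each promoter peak by gene and cell type, 1 point a peak. Cardiomyocyte peaks run from 2.33 to 35.3 kb and are wider than the peak at the same site in the other cell types except at the first Mef2c peak.

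In the other cell types most of these promoters carried narrower peaks or had none listed. The hepatocyte table listed promoter peaks for 4 of the 8 genes, namely Gata4 (both starts), Gata6, Mef2a and Mef2c, and none for Nkx2-5, Tbx5, Tbx20 or Hand2. ES cells had 1 peak at each of the 8 genes, from 2.5 to 6.69 kb wide, and none exceeded the 95th percentile of its table. Germ cells had peaks at all 8, from 0.862 kb at an upstream Mef2c start to 12.6 kb at Gata6. In germ cells the Gata4, Gata6, Mef2a and Tbx20 peaks were wider than 95% of promoter peaks of that table, though no wider than 12.6 kb. At sites listed in both tables, the cardiomyocyte peak was the wider one at 7 of 8 sites shared with ES cells (median ratio 4.6), 8 of 9 shared with germ cells (3.23) and 4 of 5 shared with hepatocytes (2.43). The first Mef2c peak, at 2.33 kb, was the exception in each case. Median widths over all promoter peaks were 4.13 kb in cardiomyocytes, 3.27 kb in ES cells, 2.74 kb in germ cells and 5.69 kb in hepatocytes. Widths come from the authors' peak lists, 1 per cell type, and have no replicate error.

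Per kb the picture differed from that of whole peaks. In B6 cardiomyocytes the first Mef2c peak had the highest level per length, 20.6 ± 1.5 CPM per kb (SD, n = 3), followed by Hand2 at 14.3 ± 1.3, Tbx5 at 13.9 ± 0.71 and Tbx20 at 13 ± 1.3 CPM per kb, whose SDs overlap. Nkx2-5, Gata6 and the 5′ Gata4 peak stood together at 10.8 ± 1.2, 10.8 ± 0.65 and 10.4 ± 0.6 CPM per kb. In B6 hepatocytes Gata6 stood at 17.4 ± 0.33 and the 5′ Gata4 peak at 16.8 ± 0.2 CPM per kb. The cardiomyocyte signal of Gata4 and Gata6 was spread over more bases, at a lower level per kb than in hepatocytes in these separately scaled tables. In B6 ES cells all 8 genes lay between 3.17 CPM per kb (Tbx5) and 7.17 CPM per kb (Mef2c). In B6 germ cells Mef2a and the first Mef2c peak stood at 16 ± 2 and 15.5 ± 3.1 CPM per kb, Gata4 and Gata6 at 9.37 ± 2.5 and 9.2 ± 1.7, and Nkx2-5, Tbx20, Hand2 and Tbx5 between 2.27 and 4.01 CPM per kb.

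Peaks of different tables could be tested only where they overlap. At 50% reciprocal overlap, the rule set for these tests, only the peaks of Mef2a and the first of Mef2c could be matched, Mef2a with hepatocytes and germ cells and Mef2c with ES cells and germ cells. Mef2c was higher in cardiomyocytes than in ES cells by a log2 of 1.20 (SE 0.064), with an edgeR quasi-likelihood adjusted p of 2.3e-16, where 41.5% of 10666 matched peaks were called higher. Against germ cells it did not pass the test (log2 difference -0.09, SE 0.06, adjusted p 0.19). Mef2a did not pass it against hepatocytes (log2 0.13, SE 0.083, adjusted p 0.16) or germ cells (log2 0.13, SE 0.13, adjusted p 0.35). In cardiomyocytes minus hepatocytes 36.5% of matched peaks were called higher, and in cardiomyocytes minus germ cells 37%.

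With any shared base taken as a match, whole broad peaks were set against narrow ones, so these differences hold width and level together. All 8 genes had more reads in cardiomyocytes than in ES cells in edgeR, from a log2 of 1.08 (SE 0.066) at the first Mef2c peak to 3.84 at Hand2, with Gata4 at 3.47, Tbx5 at 3.31 and Nkx2-5 at 2.55. Of all 16286 peaks so matched 43.7% were called higher. Against germ cells Hand2, Tbx5, Tbx20, Nkx2-5, the third Mef2c peak, Gata4 and Gata6 were higher by a log2 of 4.26, 4.18, 2.95, 2.81, 2.79, 1.77 and 1.34, where 40.9% of peaks were called higher. The first Mef2c peak was called lower than in germ cells in this fit (log2 -0.36, SE 0.06, edgeR adjusted p 1e-05), where 42.6% of peaks were called lower. Mef2a did not pass the test there (log2 -0.14). For both, the pair of peaks was the same as at 50% overlap, where the log2 was -0.09 and 0.13. Only the set of matched peaks behind the scaling and the fit had changed. Against hepatocytes Gata6 was higher by 0.63 (SE 0.1), the internal Gata4 peak by 1.41 and the first Mef2c peak by 2.63 on the log2 scale, where 38.5% of peaks were called higher, while Mef2a stood at 0.07 and was not called. Cell type was confounded with the isolation and, for ES cells, with age (embryos at day 3.5 against mice 8 weeks old). For germ cells it was also confounded with the library kit, sex, age and antibody lot (2557645 in germ cells of the 4 strains, 2746331 in the other cell types). The parts of these cannot be told apart.

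The founders were compared in each cell type to ask which promoters carry a strain difference. In cardiomyocytes 5 of the 11 promoter peaks were higher in B6 than in D2, those of Gata6, Nkx2-5, Tbx5, Mef2a and Tbx20, and none was lower. Of all 23809 cardiomyocyte peaks 6.51% were called, 4.06% higher in B6 and 2.45% lower. All 11 log2 differences were above 0, with a median of 0.42 against -0.02 over all peaks. The split of calls over all peaks depended on the fit, with 1663 higher and 1785 lower when only B6 and D2 were fitted, 1768 and 1958 without B6 replicate 2, and 444 and 75 without B6 replicate 3. Libraries of the founders did not overlap at 7 of the 11 peaks, against 33.4% of all peaks.

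Gata6, a zinc finger factor of heart and endoderm, had 368, 367 and 408 CPM in the B6 libraries, against 200, 184 and 225 CPM in the D2 libraries. Every B6 library lay above every D2 library, with a log2 difference of 0.91 (SE 0.11, edgeR adjusted p 0.00021). Nkx2-5 had 201, 249 and 218 CPM in B6, against 129, 129 and 135 CPM in D2. These groups did not overlap either, and the D2 libraries were close together (log2 difference 0.77, SE 0.11, edgeR adjusted p 0.00052). Tbx5 had 175, 179 and 162 CPM in B6, against 115, 110 and 107 CPM in D2, again without overlap (log2 0.63, SE 0.084, edgeR adjusted p 0.00033).

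Tbx20 stood at 265, 241 and 293 CPM in B6, against 217, 184 and 195 CPM in D2. The gap between the groups was smaller than for the 3 genes above (log2 0.42, SE 0.11, edgeR adjusted p 0.039). Mef2a stood at 90, 87.1 and 101 CPM in B6, against 71.8, 57.5 and 63.5 CPM in D2 (log2 0.53, SE 0.15, edgeR adjusted p 0.049). Both calls were near the threshold. Tbx20 lost its call without any 1 of 5 of the 6 founder libraries, and so did Mef2a, while both held without B6 replicate 2. Over 14 alternatives the edgeR or DESeq2 adjusted p of Tbx20 ran from 0.007 to 0.19 and that of Mef2a from 0.01 to 0.21, and with number as a replicate block they were 0.083 for Tbx20 and 0.094 for Mef2a. Gata6, Nkx2-5 and Tbx5 were called under all 14 alternatives. Among these, the fit without a filter tested the same 23809 peaks as the main fit and repeats its result.

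Gata4, Hand2 and Mef2c did not pass the test between founders. The 5′ Gata4 peak had 309, 343 and 341 CPM in B6, against 342, 312 and 298 CPM in D2, groups that overlap (log2 0.06, SE 0.1), and the internal peak differed by 0.12 (SE 0.17). Hand2 had 404, 367 and 442 CPM in B6, against 357, 294 and 341 CPM in D2. The groups were apart, but the difference did not pass the test (log2 0.29, SE 0.12, edgeR adjusted p 0.13). The first Mef2c peak had 49.9, 43.8 and 49.9 CPM in B6, against 37.3, 34.6 and 43.5 CPM in D2 (log2 0.33, SE 0.13, edgeR adjusted p 0.13). The second and the third Mef2c peaks varied more within a strain, with log2 differences of 0.09 (SE 0.27) and 0.44 (SE 0.31).

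**Figure D2:**
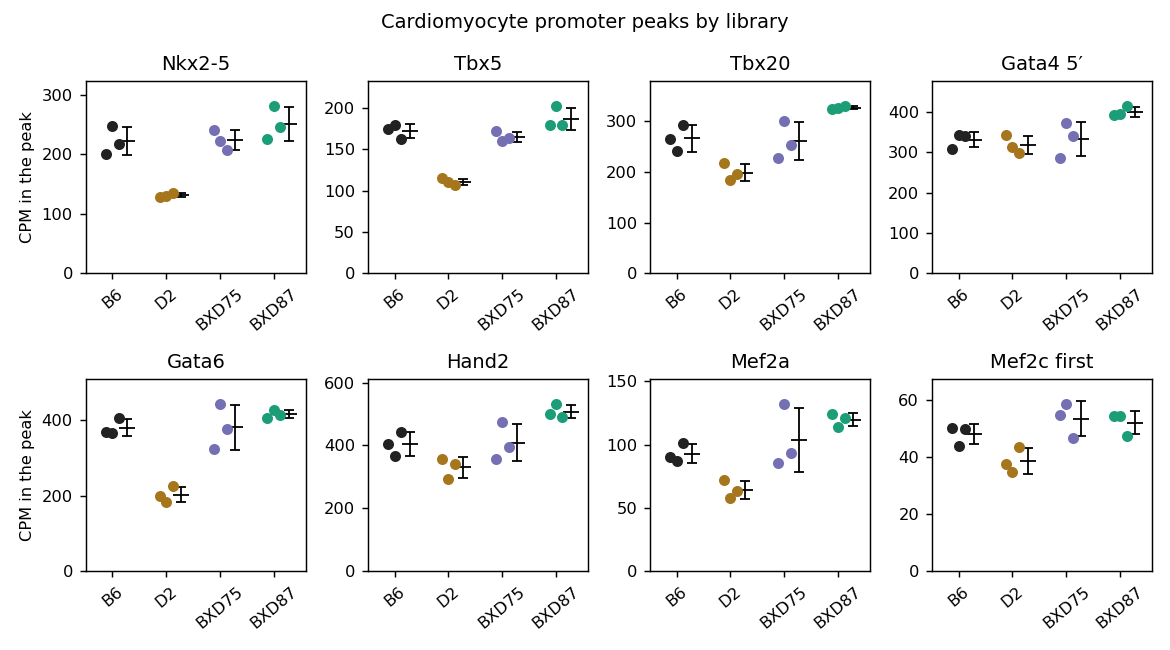
CPM in the promoter peak of each cardiomyocyte library, 3 a strain, with the mean ± SD beside them, for the widest or first peak of each gene. Among the peaks shown, the D2 libraries lie below the B6 libraries without overlap in all but the 5′ Gata4 panel. The internal Gata4 peak and the wider Mef2c peaks are not shown, and at each of them the B6 and D2 libraries overlap. Libraries of the founders did not overlap at 7 of the 11 promoter peaks, against 33.4% of all cardiomyocyte peaks.

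Several measures moved with the founder difference, and their part in it was not tested. Depth was one, at 6.84 to 8.34 M reads in peaks per B6 library and 2.62 to 4.1 M per D2 library. With all libraries thinned to the shallowest, 4 of the 11 promoter peaks were called higher in B6. Of all 23758 peaks tested there, 794 were called higher and 485 lower. Summed over the 10 cardiomyocyte markers with a promoter peak, the B6 libraries stood at 997 to 1147 CPM and the D2 libraries at 762 to 793 CPM. Of the 10, 5 were called higher in B6 and 0 lower, where 4.06% of all peaks were called higher and 2.45% lower. Among the endothelial, fibroblast and epicardial, mural and blood markers 0 were called. Fibroblast and epicardial markers stood at 329 to 400 CPM in B6 and 357 to 404 CPM in D2, and mural markers at 208 to 251 CPM in B6 and 262 to 287 CPM in D2. Endothelial markers stood at 686 to 779 CPM in B6 and 687 to 734 CPM in D2, and the single blood marker with a peak at 56.2 to 67.3 CPM in B6 and 50.7 to 55.1 CPM in D2. In bulk samples fewer cells of a type and less of the mark per cell cannot be told apart. Broad peaks in general were higher in B6, since the median log2 difference was -0.04 over 21885 peaks up to 10 kb, 0.11 over 1519 peaks of 10 to 20 kb and 0.16 over 405 peaks above 20 kb. The share called higher was 3.02%, 12.64% and 28.15% in these classes. With a loess trend on peak level removed from each library, Gata6 kept a log2 difference of 0.71, Nkx2-5 of 0.61 and Tbx5 of 0.51, with edgeR adjusted p of 0.00081, 0.012 and 0.0085. Tbx20 and Mef2a were not called there, at 0.25 and 0.46 with adjusted p of 0.12 and 0.055, and the 5′ Gata4 peak had a value of -0.14.

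**Figure D3:**
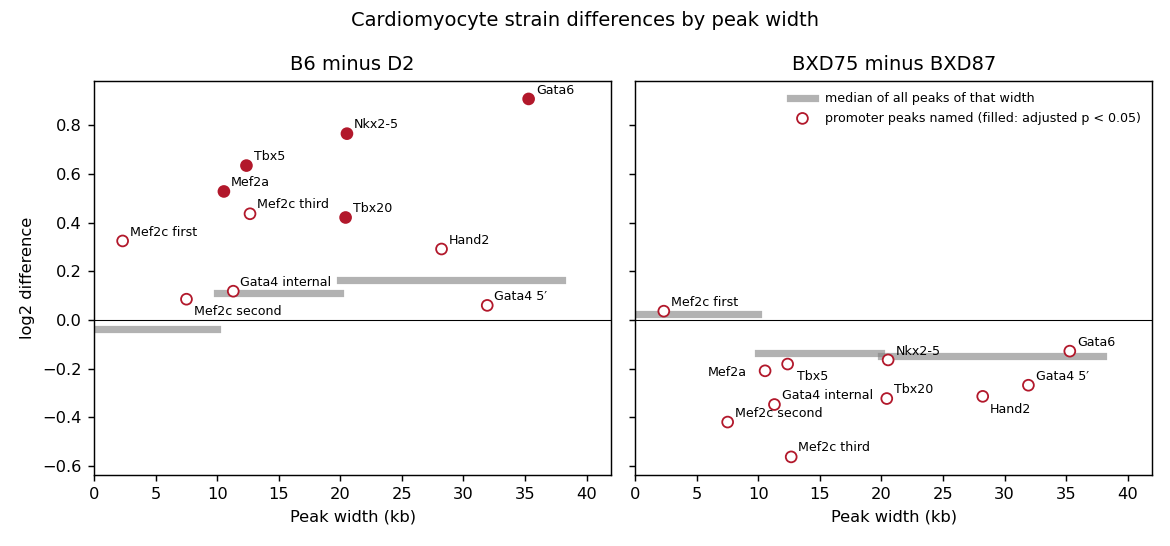
Log2 difference in cardiomyocytes against peak width in kb, B6 minus D2 on the left and BXD75 minus BXD87 on the right, for the 11 promoter peaks (filled where the adjusted p is under 0.05) and the median of all peaks in 3 width classes (grey bars). The medians go from -0.04 to 0.16 with width on the left and from 0.02 to -0.15 on the right.

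BXD75 and BXD87, 2 lines of the panel, gave no called difference at these promoters. edgeR called 0 of 11 peaks, 4 had an unadjusted p under 0.05 and DESeq2 called 0, where 0.529% of all cardiomyocyte peaks were called. The log2 differences were below 0 at 10 of 11 peaks, with a median of -0.27 against 0.01 over all peaks. Hand2 had 356, 474 and 396 CPM in BXD75, against 501, 533 and 491 CPM in BXD87, the groups being apart (log2 -0.31, SE 0.11, edgeR adjusted p 0.23). Tbx20 had 228, 301 and 254 CPM in BXD75, against 324, 325 and 330 CPM in BXD87, also apart (log2 -0.32, SE 0.11, edgeR adjusted p 0.22). Gata6 had 325, 444 and 376 CPM in BXD75, against 408, 429 and 415 CPM in BXD87, which overlap (log2 -0.13, SE 0.11). Groups did not overlap at 4 of the 11 peaks, against 17% of all peaks. The third Mef2c peak had 61, 171 and 113 CPM in BXD75, against 192, 140 and 178 CPM in BXD87, groups that overlap. Cardiomyocyte markers summed to 917 to 1037 CPM in BXD75 and 1211 to 1421 CPM in BXD87, with 0 of the 10 called. Fibroblast and epicardial markers lay the other way, at 319 to 432 CPM in BXD75 and 288 to 315 CPM in BXD87. Endothelial markers stood at 595 to 794 CPM in BXD75 and 662 to 686 CPM in BXD87, mural markers at 173 to 239 CPM in BXD75 and 186 to 202 CPM in BXD87, and the blood marker at 55.3 to 69.6 CPM in BXD75 and 65.5 to 73.1 CPM in BXD87. Peaks above 20 kb had a median log2 difference of -0.15. Depth differed here too, at 7.15 to 7.65 M reads in peaks per BXD75 library and 10.5 to 12.8 M per BXD87 library. The part of these measures was not tested.

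In hepatocytes no promoter peak of these genes was called between strains. edgeR called 0 of 5 peaks in B6 minus D2 and 0 of 5 in BXD75 minus BXD87, none had an unadjusted p under 0.05 and DESeq2 called 0, where 15.8% and 4.89% of all peaks were called. Gata6 had 225, 226 and 218 CPM in B6, against 252, 226 and 222 CPM in D2. These groups overlap, and the log2 difference of -0.06 (SE 0.081, edgeR adjusted p 0.75) was smaller than its SE, against 0.91 in cardiomyocytes. The 5′ Gata4 peak had 96.1, 94.7 and 93.8 CPM in B6, against 94.8, 90 and 93.1 CPM in D2 (log2 0.03, SE 0.081). Mef2a averaged 98.1 ± 2.6 CPM in B6 and 89.9 ± 6.8 CPM in D2 (SD, n = 3 each; log2 0.13, SE 0.084). Mef2c was the lowest, at 8.99 ± 1.3 CPM in B6 and 8.6 ± 3.6 CPM in D2.

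In ES cells all 8 promoters carried a low peak, and edgeR called 0 of 8 in B6 minus D2 and 0 of 8 in BXD75 minus BXD87, where 30.6% and 21.8% of all peaks were called. In each comparison 1 had an unadjusted p under 0.05, and DESeq2 called 0 between founders and 1, Mef2a, between the BXD lines. The first Mef2c peak had a log2 difference of 0.27 between founders (SE 0.13, edgeR adjusted p 0.11), and without D2 line 216 it was called higher in B6, at 0.45 (SE 0.11, edgeR adjusted p 0.0039). Without that line 11020 of all 67192 peaks were called higher in B6 and 12583 lower. Nkx2-5 had 21.8, 22.4 and 20.1 CPM in B6 lines, against 29.7, 21.6 and 16 CPM in D2 lines, which enclose the B6 values. Tbx5 had 9.78, 9.62 and 8.77 CPM in B6 lines, against 13.8, 10.3 and 7.99 CPM in D2 lines. Tbx20 was the highest of the 8, at 41.8, 39.4 and 43.6 CPM in B6 lines and 45.5, 45.1 and 44 CPM in D2 lines, apart but not called (log2 -0.11, SE 0.083, edgeR adjusted p 0.35). Mef2a stood at 27 ± 1.8 CPM in BXD75 and 23.1 ± 1.7 CPM in BXD87 (SD, n = 5 lines each), with a log2 difference of 0.23 (SE 0.087) and an edgeR adjusted p of 0.067. DESeq2 gave an adjusted p of 0.046 for it, and over its alternatives it was called in 3.

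In male germ cells edgeR called 0 of 10 promoter peaks in B6 minus D2, F1 minus B6 and F1 minus D2, and so did DESeq2, where 17.1%, 4.56% and 5.77% of all peaks were called. An unadjusted p under 0.05 was found at 2, 1 and 1 of the 10. The 3 comparisons share libraries. Tbx20 had 22.8, 30.1 and 19.8 CPM in B6, against 30.2, 33.5 and 30.7 CPM in D2, apart by a narrow gap (log2 -0.37, SE 0.16, edgeR adjusted p 0.13), and 34.1, 29.1, 32.2 and 28.6 CPM in F1. Gata4 varied among B6 libraries, with 65.3, 112 and 103 CPM, against 82, 93.3 and 73.6 CPM in D2, and Gata6 had 92.2, 133 and 123 CPM in B6 against 105, 104 and 89.3 CPM in D2. The library of the B6 column named B62 was the lowest for both. Without it Gata4 and Gata6 were called higher in B6, at log2 0.38 and 0.36 (edgeR adjusted p 0.02 and 0.022). That fit called 4703 of all 67109 peaks higher in B6 and 5330 lower. Without the B6 column named B63, Hand2 and Tbx20 were called lower in B6 and the third Mef2c peak higher, at log2 -0.56, -0.56 and 0.77 (edgeR adjusted p 0.034, 0.014 and 0.046). Calls over all peaks rose in that fit too, to 16222 of 67112, against 11463 of 67101 in the main fit. In F1 minus B6, Gata4 was called lower without B62 (log2 -0.36) and Tbx20 higher without B63 (log2 0.54). Over all peaks these 2 fits called 2769 of 67109 and 6982 of 67112, against 3057 of 67101 in the main fit. Sertoli and Leydig markers summed to 154 to 216 CPM in B6 and 142 to 172 CPM in D2. Of the 5 with a promoter peak, 2 were called higher in B6 and 1 lower, where 17.1% of all peaks were called. Their part was not tested.

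**Figure D4:**
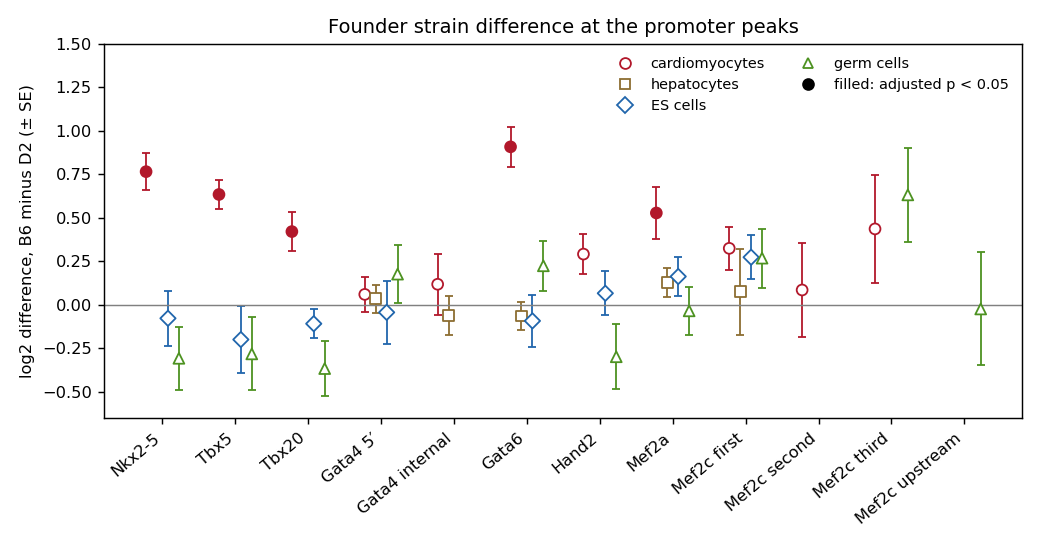
Log2 difference of B6 minus D2 with its SE at each promoter peak, by cell type, filled where the edgeR adjusted p is under 0.05. Filled points are those of Nkx2-5, Tbx5, Tbx20, Gata6 and Mef2a in cardiomyocytes.

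Whether the founder difference itself differs between cell types was tested by the strain by cell type term. None of these peaks could be matched in the 3 cell types at 50% overlap, so fits on 2 cell types with peaks matched by any shared base were added after the data were seen. Between cardiomyocytes and ES cells the difference was larger in cardiomyocytes for Gata6 by a log2 of 1.09 (SE 0.2, edgeR adjusted p 0.0028), Nkx2-5 by 0.93 (SE 0.24, 0.019), Tbx5 by 0.92 (SE 0.21, 0.0098) and Tbx20 by 0.60 (SE 0.16, 0.021), and 11.7% of 16286 peaks were called. Mef2a (0.44), Hand2 (0.31), the 5′ Gata4 peak (0.18) and the first Mef2c peak (0.12) were not called. Between cardiomyocytes and hepatocytes Gata6 differed by 1.02 (SE 0.12, adjusted p 1.9e-05) and Mef2a by 0.44 (SE 0.13, adjusted p 0.029), and 13.3% of 12964 peaks were called. The internal Gata4 peak (0.21) and the first Mef2c peak (0.29) were not called. The hepatocyte peaks overlapping the Nkx2-5 and 5′ Gata4 domains were not promoter peaks of those genes and are not compared.

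Across the 61 BXD lines the germ cell peaks were read as line means. Gata6 ran from 92.6 to 184 CPM with a median of 124 CPM, and Gata4 from 73.7 to 164 CPM with a median of 103 CPM, and BXD86 was highest for both. Mef2a ranged from 63 to 93.8 CPM, a ratio of 1.49, and Tbx20 from 28.9 to 46 CPM, a ratio of 1.59. Nkx2-5 ran from 21.8 to 43.7 CPM, Hand2 from 16.1 to 32.2 CPM and Tbx5 from 5.37 to 13.8 CPM. The third Mef2c peak ran from 5.16 to 36.5 CPM, a ratio of 7.07, the upstream one from 1.12 to 6.57 CPM, a ratio of 5.89, and the first from 35.2 to 78.5 CPM. BXD75 and BXD87 had 1 germ cell library each, with 111 and 124 CPM at Gata6 and 30.6 and 24.8 CPM at Nkx2-5. Lines measured with antibody lot 2746331 (32 lines) had higher medians than those with lot 2557645 (28 lines) at Gata4, 110 and 91.9 CPM, at Gata6, 129 and 114 CPM, and at the third Mef2c peak, 19.1 and 12.7 CPM. At Mef2a the medians were 71 CPM with lot 2746331 and 78 CPM with lot 2557645.

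Gata4 and Gata6 moved with markers of testis somatic cells over the panel. Of 10 Sertoli and Leydig markers 5 had a germ cell promoter peak, namely Amh, Cldn11, Sox9, Rhox5 and Hsd3b1. Gata1, Nr5a1, Star, Cyp11a1 and Insl3 had none. The summed level of the 5 ran from 148 to 301 CPM over the 61 lines. On a log2 scale Gata6 had a Pearson r of 0.933 with this sum and a Spearman rho of 0.915, and Gata4 had 0.883 and 0.848, with permutation p and adjusted p of 1e-05 and 4e-05, the p being the smallest that 100000 permutations can give. The relation held within lot 2557645 (r 0.835 for Gata6, 0.755 for Gata4) and lot 2746331 (0.971 and 0.887), and without the 2 lines farthest from the median (0.926 and 0.878). The first Mef2c peak had r 0.445 (rho 0.339) and Mef2a r 0.271 (rho 0.238), with permutation p adjusted over the 8 relations of 0.00096 and 0.034 for r and 0.013 and 0.073 for rho. Within lots r was 0.675 and 0.538 for Mef2c and 0.604 and 0.596 for Mef2a. Tbx20, Tbx5, Nkx2-5 and Hand2 had r of 0.41, 0.399, 0.372 and 0.275, with permutation adjusted p of 0.0021, 0.0025, 0.0042 and 0.034. Their rho was 0.313, 0.365, 0.347 and 0.217, with permutation adjusted p of 0.019, 0.011, 0.013 and 0.092. Their relation did not hold within lot 2557645, where r was below 0 for each, and r was 0.511, 0.483, 0.44 and 0.415 within lot 2746331. Without the 2 lines farthest from the median, r was 0.362, 0.335, 0.379 and 0.295 for these genes, 0.38 for Mef2c and 0.236 for Mef2a. The lines share a peak set and normalisation, and the part of somatic cells in these levels was not tested.

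**Figure D5:**
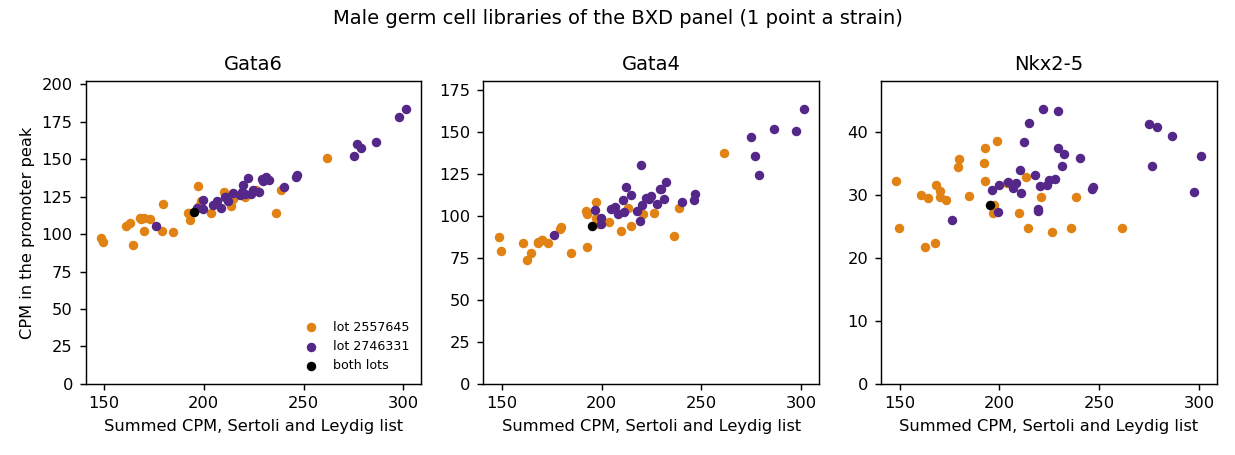
CPM of the Gata6, Gata4 and Nkx2-5 promoter peaks in germ cells against the summed CPM of Sertoli and Leydig markers, 1 point a BXD line, coloured by antibody lot. The Gata6 points follow the sum closely (r 0.933) and those of Nkx2-5 scatter (r 0.372).

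Other regulators of the heart showed a mixed founder pattern. Of 35 in a wider list, 32 had a cardiomyocyte promoter peak, and edgeR called 6 higher and 2 lower in B6, with a median log2 of 0.01 against -0.02 over all peaks, of which 4.06% were called higher and 2.45% lower. The 4 called with the smallest adjusted p were all higher in B6. Mef2d, the MEF2 factor beside Mef2a and Mef2c, averaged 440 ± 34 CPM in B6 and 288 ± 21 CPM in D2 (SD, n = 3 each; log2 0.61, edgeR adjusted p 0.00061). Ankrd1, a muscle ankyrin repeat protein, differed by 0.64 (adjusted p 0.0061), Irx4, a ventricular homeobox factor, by 0.52 (adjusted p 0.0098) and Myocd, a coactivator of serum response factor, by 0.69 (adjusted p 0.02). Irx4 lost its call without B6 replicate 3 and without D2 replicate 3, with adjusted p of 0.054 and 0.053, and over its 14 alternatives the adjusted p ran from 8e-05 to 0.054. Its cardiomyocyte peak spanned 33.1 kb, against 2.44 kb in ES cells and 1.93 kb in germ cells. Between BXD75 and BXD87 cardiomyocytes edgeR called 0 of the 32, where 0.529% of all peaks were called.

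In hepatocytes B6 minus D2 gave 2 higher and 1 lower of 24, where 15.8% of all peaks were called, namely Esrrg (log2 0.61, edgeR adjusted p 0.0063), Heyl (1.37, 0.045) and Meis2 (-0.49, 0.0056). Heyl was low, at 7.75 ± 3.2 CPM in B6 and 3.09 ± 0.45 CPM in D2 (SD). In ES cells Isl1, a progenitor factor of the second heart field, was higher in B6 than in D2 (log2 0.46, edgeR adjusted p 0.007), as the only call of 32, where 30.6% of all peaks were called. Among the 32 tested between BXD75 and BXD87 ES cells, Heyl, Isl1 and Meis2 were higher in BXD75, where 21.8% of all peaks were called. Their log2 differences were 0.59, 0.29 and 0.32 (edgeR adjusted p 0.0055, 0.034 and 0.036). In germ cells Smyd1, at the low levels of 1.04 CPM in B6 and 2.81 CPM in D2, was lower in B6 (log2 -1.47, edgeR adjusted p 0.0076). Fhl2 was lower in F1 than in B6 (log2 -1.04, edgeR adjusted p 0.019). These were the calls among the 34 with a germ cell peak in the 3 comparisons, where 17.1% (B6 minus D2), 4.56% (F1 minus B6) and 5.77% (F1 minus D2) of all peaks were called.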

How the data were processed

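H3K4me3 ChIP-seq of MNase-digested chromatin covered 123 samples, and 12 input samples had no column in the count tables, so no background was subtracted. The authors deposited counts, whole-number reads per peak and sample, not normalised, with peak positions as coordinates on mm10. The submitters' processing notes name MACS 1.4.2, BWA 0.5.10 and CASAVA 1.8, with roles and filters not given in the sources used here. By the labels' protocols germ cell libraries used the NEXTflex kit and the others the KAPA kit. Peaks within 1 kb of a GENCODE M21 basic start site were assigned to genes. Members and gene lists were chosen with earlier results of these data known. All H3K4me3 columns were matched to samples, 3 germ cell columns (B62, B63, B64) only to the B6 group. ES libraries of 1 line were summed (B6 line 49, D2 line 203).

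Tests were edgeR 4.0.16 quasi-likelihood fits in R 4.3.3 (filterByExpr, TMM, robust) over all peaks of a table and all strains of that cell type (B6, D2 and F1 in germ cells), called at a Benjamini-Hochberg adjusted p under 0.05, after a check on simulated data. DESeq2 1.42.0, other scalings and filters, left-out libraries, thinning and a replicate block were alternatives. Panel levels were scaled over all germ cell libraries. Peaks were matched between tables with bedtools 2.31.1. Named genes were every member, and of the wider list up to 4 called genes with the smallest adjusted p per comparison, of which 1 result is not reported here. For patterns alike over all cell types no member peak was matched in all 4 tables at 50% overlap, so none is named. Libraries with the same number were not paired by the labels.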

Additional observations from a re-analysis of the deposited data

Results flagged for a closer look

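The difference between B6 and D2 itself differed between cell types at several promoters, by the strain by cell type term of edgeR with peaks matched by any shared base, fits that were chosen after seeing the data. Between cardiomyocytes and ES cells the log2 difference of B6 minus D2 was larger in cardiomyocytes by 1.09 at Gata6, 0.93 at Nkx2-5, 0.92 at Tbx5 and 0.60 at Tbx20. Mef2a, Hand2, the 5′ Gata4 peak and the first Mef2c peak were not called, where 11.7% of all 16286 peaks were. Between cardiomyocytes and hepatocytes the difference of B6 minus D2 was larger by 1.02 at Gata6 and by 0.44 at Mef2a. The internal Gata4 peak and the first Mef2c peak were not called, where 13.3% of all 12964 peaks were. Peak widths differ between these cell types, and the summed cardiomyocyte markers in cardiomyocytes stood at 997 to 1147 CPM in B6 and 762 to 793 CPM in D2, so the part of either was not tested. Only ES cells of BXD75 and BXD87 and germ cells of F1 had enough libraries, 4 or 5, to be read for a library apart from its group at each peak, and none was found. Groups of B6 and D2, with 3 each, were not read for this.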

How the results depend on the processing

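The calls of Gata6, Nkx2-5 and Tbx5 between cardiomyocytes of B6 and D2 held under all 14 alternatives, while those of Tbx20 and Mef2a held under 7 and 6. Each of these counts includes the fit without a filter, which repeats the main fit. Counts of called peaks over whole tables moved more. For B6 minus D2 in cardiomyocytes edgeR called 1551 peaks, against 2536 with DESeq2, 3448 with only the groups compared in the fit and 831 with number as a replicate block. Leaving out 1 library gave 502 to 3726, the highest without B6 replicate 2. For BXD75 minus BXD87 in cardiomyocytes the count was 126, against 461 with DESeq2, 27 with only the groups compared, 72 with the replicate block, 43 after thinning to the shallowest library and 49 to 346 with 1 library left out. A stricter filter in germ cells gave 5339 in place of 11463 for B6 minus D2, 1687 in place of 3057 for F1 minus B6 and 2022 in place of 3874 for F1 minus D2, with fewer peaks tested. F1 minus B6 ran from 1576 (without B64) to 6982 (without B63). Any shared base against 80% reciprocal overlap gave 10805 and 1361 for cardiomyocytes minus hepatocytes (5954 at 50%), 14328 and 3019 for cardiomyocytes minus ES cells (8816) and 13044 and 2706 for cardiomyocytes minus germ cells (7856), with more or fewer peaks matched. The strain by cell type term called 781 peaks at 50%, against 87 at 80%, 458 after thinning, 551 to 1270 with 1 library left out, and 1910 and 1720 in the fits with ES cells alone and hepatocytes alone. For counts that moved under DESeq2, the groups compared, the block or thinning, the cause was not tested. Within lot 2557645 the panel r fell below 0 for Nkx2-5 (-0.0990), Tbx5 (-0.125), Tbx20 (-0.1235) and Hand2 (-0.252).

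Same-numbered libraries did not all deviate together, since 8 of 18 pairs in cardiomyocytes and 5 of 18 in hepatocytes correlated above 0.1, and 3 of 12 and 5 of 12 libraries correlated best with their own number. They share only a number. With the replicate block the hepatocyte counts were 4678 for B6 minus D2 (4593 without) and 1530 for BXD75 minus BXD87 (1425 without), and F1 minus D2 in germ cells had 3372 (3874 without). No paired analysis was possible for ES cells or for germ cell comparisons with B6, because their columns carry no shared numbers. Thinning all cardiomyocyte libraries to the shallowest, a D2 library of 2.62 M reads, left 1279 calls for B6 minus D2.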
